A study of Mus musculus with 15 samples.

Results

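The mitosis and spindle checkpoint genes are 60 named mouse genes that act between the entry into mitosis and the separation of the daughter cells. They were taken by name, with earlier results of these data known. Of the 60, 59 had a probe set on the array that names 1 gene. All 59 passed the filter on dim genes, out of 16883 genes that passed and 19938 genes with such a probe set. Ccnb1, cyclin B1, was the gene without one and was not analysed here, and Sgol1 was listed under its current symbol Sgo1. By role they comprise Mki67 and Top2a, as markers of dividing cells and chromosome disentangling, and 12 kinases, cyclins and phosphatases of mitotic entry with their regulators (Cdk1, Ccna2, Ccnb2, Plk1, Plk4, Aurka, Cdc25b, Cdc25c, Cdca3, Foxm1, Melk and Nek2). A further 9 act in the spindle checkpoint and anaphase (Bub1, Bub1b, Bub3, Mad2l1, Ttk, Cdc20, Espl1, Pttg1 and Sgo1), 4 form the chromosomal passenger complex (Aurkb, Birc5, Incenp and Cdca8), and 9 belong to the centromere and kinetochore (Cenpa, Cenpe, Cenpf, Cenpi, Cenpk, Ndc80, Nuf2, Spc24 and Spc25). The spindle motors and assembly factors number 10 (Kif2c, Kif4, Kif11, Kif15, Kif18a, Kif22, Tpx2, Nusap1, Aspm and Hmmr). The central spindle and cytokinesis genes number 7 (Kif20a, Kif20b, Kif23, Prc1, Ect2, Anln and Racgap1), and 6 encode condensin subunits (Smc2, Smc4, Ncapd2, Ncapg, Ncapg2 and Ncaph).

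The genes were measured on 15 Affymetrix arrays of sorted mouse pancreas cells, in 5 groups of n = 3 arrays. The groups were Ngn3-GFP+ cells at e15.5 from Ngn3-EGFP embryos, Sox9-GFP+ cells from Sox9-EGFP animals of 3 stages (e10.5, e15.5, p23), and GFP- cells at p23, also from Sox9-EGFP animals. Both reporter lines were carried by males mated to CD1 females, and the labels give CD1 as the background of all samples. GFP+ cells were those of high GFP signal, and animals were pooled before each sort, and p-values therefore measure how pooled sorts varied, not how animals did. Sox9 marks the multipotent epithelial progenitors of the early pancreas and later the duct, and Ngn3 (Neurog3) marks progenitors committed to the endocrine lineage.

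Mitosis is driven by Cdk1 bound to cyclin B, aided by the Polo and Aurora kinases. Kinetochores, built on centromeres that carry the histone variant Cenpa, attach chromosomes to spindle microtubules. Unattached kinetochores hold back anaphase through the spindle checkpoint, in which Mad2l1 and Bub1b keep Cdc20 from activating the anaphase-promoting complex. Most of these transcripts are made late in the cell cycle, and their promoters are repressed in resting cells by the DREAM complex and activated in dividing cells by B-Myb and Foxm1. In the mouse pancreas, progenitors of the bud and trunk epithelium divide, and cells with high Ngn3 are known to leave the cell cycle as they become endocrine.

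The promoter sequences below are shown because the genes that moved together in these arrays are of a class described by 2 short elements. These are the cell cycle homology region, written here as TTTGAA or TTCGAA, and the CCAAT box bound by NF-Y. Each stretch runs from 120 bases before to 25 bases after the RefSeq start site (GRCm38.p6), 5′ to 3′ on the strand of the gene. Capitals mark each match to TTTGAA or to TTCGAA or to CCAAT on either strand, so TTCAAA and ATTGG are matches on the opposite strand. Cdk1, Ccnb2, Cdc20, Kif11, Cdca8, Cenpa and Hmmr stand for several roles. Cdc25b is shown as a member not called between any stages of Sox9-GFP+ cells, and Mad2l1 as a member with no match in the printed window.
Cdk1 (chr10:69352888-69353032, minus strand): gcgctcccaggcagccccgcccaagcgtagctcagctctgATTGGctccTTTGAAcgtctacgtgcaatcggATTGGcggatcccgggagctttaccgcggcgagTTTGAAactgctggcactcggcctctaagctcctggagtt
Ccnb2 (chr9:70421530-70421674, minus strand): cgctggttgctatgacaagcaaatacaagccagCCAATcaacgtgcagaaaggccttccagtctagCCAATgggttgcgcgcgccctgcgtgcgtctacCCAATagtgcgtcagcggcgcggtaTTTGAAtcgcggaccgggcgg
Cdc20 (chr4:118437319-118437463, minus strand): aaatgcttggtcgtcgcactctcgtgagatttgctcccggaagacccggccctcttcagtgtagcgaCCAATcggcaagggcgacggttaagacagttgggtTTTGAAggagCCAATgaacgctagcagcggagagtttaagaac
Kif11 (chr19:37376262-37376406, plus strand): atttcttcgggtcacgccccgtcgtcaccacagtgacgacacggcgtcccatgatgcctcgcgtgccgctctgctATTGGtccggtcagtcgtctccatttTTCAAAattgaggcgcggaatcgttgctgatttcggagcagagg
Cdca8 (chr4:124936893-124937037, minus strand): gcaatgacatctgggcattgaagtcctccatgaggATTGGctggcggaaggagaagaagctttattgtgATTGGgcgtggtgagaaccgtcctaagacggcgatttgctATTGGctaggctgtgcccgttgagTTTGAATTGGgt
Cenpa (chr5:30666766-30666910, plus strand): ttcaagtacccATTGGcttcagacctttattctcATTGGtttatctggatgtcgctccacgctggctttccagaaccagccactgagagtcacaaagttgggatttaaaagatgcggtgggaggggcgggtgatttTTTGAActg
Hmmr (chr11:40733413-40733557, minus strand): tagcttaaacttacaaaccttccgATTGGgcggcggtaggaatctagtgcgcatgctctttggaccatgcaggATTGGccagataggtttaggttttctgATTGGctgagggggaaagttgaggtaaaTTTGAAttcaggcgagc
Cdc25b (chr2:131186828-131186972, plus strand): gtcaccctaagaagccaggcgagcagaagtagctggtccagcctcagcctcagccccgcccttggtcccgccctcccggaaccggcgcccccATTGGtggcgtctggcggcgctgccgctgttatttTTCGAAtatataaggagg
Mad2l1 (chr6:66535101-66535245, plus strand): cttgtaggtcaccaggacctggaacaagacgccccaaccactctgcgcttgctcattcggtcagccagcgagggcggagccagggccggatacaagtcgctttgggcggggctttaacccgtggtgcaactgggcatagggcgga

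RefSeq promoters of 300 bases (250 before and 50 after the start) were matched for 50 of the 59 members, with 55 start sites. TTTGAA or TTCGAA on either strand stood in 72.7% of the members' start sites and in 19.2% of all 32851 start sites of mouse genes. CCAAT stood in 72.7% of the members' and 37.4% of all start sites, and 2 or more CCAAT in 43.6% and 11.7%. Both kinds of element stood together in 61.8% of the members' start sites, against 7.52% of all. Of the 54 TTTGAA or TTCGAA matches 38 lay within 50 bases of the start, and of the 81 CCAAT matches 62 lay 1 to 150 bases before it. These matches were counted per start site, so an element in overlapping windows, as in Ect2, Prc1 and Bub3, was counted more than once. Positions were not counted for all start sites, and both zones take up much of the window. The counts therefore show no preference for a position. One pair of matches overlapped, in Cdca8, where TTTGAA runs into ATTGG. In the promoters of a list of DNA replication and S phase genes, TTTGAA or TTCGAA stood in 18.6% and CCAAT in 55.8% of 43 start sites, while a list of other mitosis genes had 54.7% and 65.6% of 64. A match is a match of letters only. Cdc25b carries both elements in its printed stretch.

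Levels below are log2(intensity + 16), and changes are differences on that scale with their standard error, tested with limma over all 16883 genes and called where the p adjusted by Benjamini and Hochberg was under 0.05. Each change of a gene is given as the first-named sort, or the later stage, minus the other. The sorts themselves were checked first. Array medians lay between 165 and 212 intensity units. Sox9 read 11.62, 11.94 and 12.10 on the log2(intensity + 16) scale in Sox9-GFP+ cells at p23 and 10.08, 9.81 and 8.68 in GFP- cells, and 11.21, 10.13 and 11.14 in Ngn3-GFP+ cells against 12.14, 12.10 and 12.11 in Sox9-GFP+ cells at e15.5. Neurog3 did not separate the e15.5 sorts, at 11.53, 11.75 and 12.21 in Ngn3-GFP+ cells and 12.12, 11.82 and 11.66 in Sox9-GFP+ cells, whereas the summed intensity of 9 endocrine genes was 54600 to 61600 in Ngn3-GFP+ and 30800 to 40400 in Sox9-GFP+ cells. Other cell types were present in some sorts. The 18 leukocyte genes summed to 5030 to 8050 in Sox9-GFP+ cells at p23 and to 77800 to 118000 in GFP- cells at p23, against 1540 to 2570 in the 9 embryonic arrays. Ptprc, the common leukocyte antigen, read 8.12, 10.64 and 10.09 in Sox9-GFP+ and 14.28, 14.41 and 14.64 in GFP- cells at p23. In the embryonic Sox9-GFP+ arrays the embryonic globin Hbb-y read 9.98, 5.93 and 6.35 at e15.5 and 10.48, 11.20 and 6.05 at e10.5, so 3 embryonic arrays carried this transcript. Results that rest on these arrays are given with and without them.

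Over all 15 arrays the members were high in embryonic Sox9-GFP+ cells and low elsewhere. In 53 of the 59 members all 6 arrays of embryonic Sox9-GFP+ cells lay above all 9 other arrays, which held for 5.62% of all genes tested. The group of highest mean was Sox9-GFP+ e15.5 for 51 members, Sox9-GFP+ e10.5 for 6, and GFP- p23 for the other 2, Cdc25b and Smc4. The group of lowest mean was Ngn3-GFP+ e15.5 for 9 members, Sox9-GFP+ p23 for 6 and GFP- p23 for 44. In every array 55 members stayed above the filter level of 6.83, and the lowest single value was 5.87, for Kif18a in the second Ngn3-GFP+ array. The filter level is percentile 30 of all values and not a limit of detection, which was not tested.

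**Figure D1:**
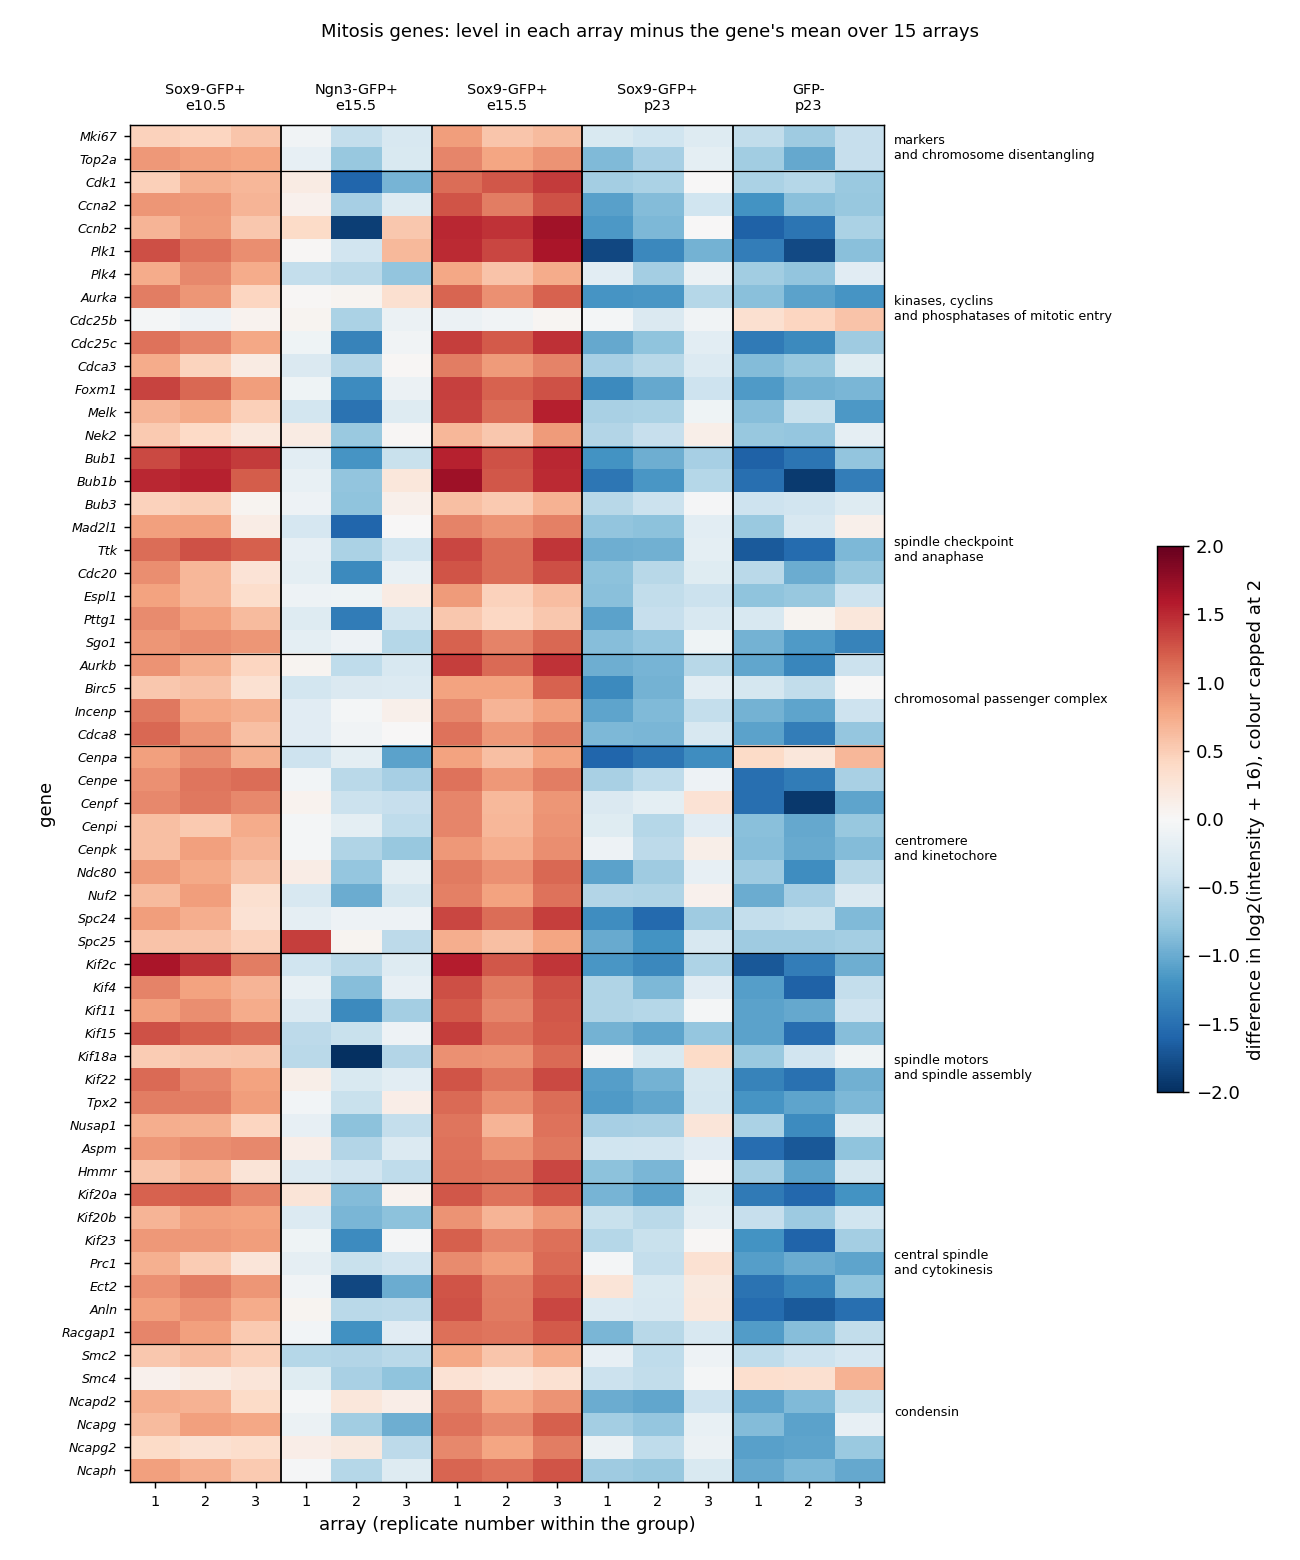
Level of each of the 59 mitosis genes in each of the 15 arrays, as the difference in log2(intensity + 16) from the gene's own mean over all arrays, with red above and blue below that mean. Rows are genes grouped by role and columns are arrays grouped by sort; the 6 arrays of embryonic Sox9-GFP+ cells are red in nearly all rows, and the third Sox9-GFP+ p23 array is paler than the other 2 of its group.

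At e15.5, Ngn3-GFP+ cells held less of nearly every mitosis transcript than Sox9-GFP+ cells. The sorts are named by their reporters only, as Neurog3 did not separate them and all 9 endocrine genes lay above the filter level in both. Of the 59 members 57 were called lower by limma and 0 higher, 48 of them by at least 2-fold, with a median log2 change of -1.39. Of all 16883 genes 18.4% were called lower and 23.3% higher, 4.44% were called lower by at least 2-fold, and the median change was 0.04. All 59 changes were negative, so 0 members were higher at any threshold. In such bulk samples, fewer dividing cells and less RNA per dividing cell cannot be told apart. Marker genes also differed between these sorts. In Ngn3-GFP+ cells 4 of 6 acinar genes were called lower, with sums of 12800 to 15100 against 17600 to 23900. Called higher were 5 of 9 endocrine, 5 of 12 endothelial and 4 of 18 leukocyte genes. The part of these markers in the lower mitosis genes was not tested. The share of calls that were higher over all genes was 55.9%, and 28.2% with arrays centred on their medians or 42.4% with quantile normalization, but the members were 57 lower and 0 higher under both.

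Mki67, the chromosome-coating antigen used to mark dividing cells, read 9.95, 9.56 and 9.71 in Ngn3-GFP+ cells and 10.87, 10.58 and 10.66 in Sox9-GFP+ cells. Its log2 change was -0.96 ± 0.12 (adjusted p = 0.000254), a level 1.95-fold lower. Top2a, the topoisomerase that disentangles sister chromatids, read 10.51, 9.91 and 10.37 against 11.65, 11.46 and 11.58 and changed by -1.30 ± 0.19 (adjusted p = 0.000605). For both genes the highest Ngn3-GFP+ array lay well under the lowest Sox9-GFP+ array. Top2a has a second, dim probe set, which averaged 6.53 in Ngn3-GFP+ and 7.12 in Sox9-GFP+ cells, in the same direction.

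Among the genes of mitotic entry 11 of 12 were called lower. Cdk1, the kinase that drives entry, read 9.86, 8.11 and 8.77 in Ngn3-GFP+ cells, against 10.82, 10.94 and 11.11 in Sox9-GFP+ cells. It changed by -2.04 ± 0.31 (adjusted p = 0.000737), or 4.12-fold, and its Ngn3-GFP+ arrays were spread over more than 1 log2 unit while its Sox9-GFP+ arrays were close together. Plk1, the Polo kinase of spindle formation, read 9.48, 9.07 and 10.10 against 10.94, 10.79 and 11.08, a change of -1.39 ± 0.28 (adjusted p = 0.0035). Foxm1, a transcription factor that activates many genes of this class, read 8.51, 7.33 and 8.47 against 9.96, 9.78 and 9.86 and changed by -1.76 ± 0.28 (adjusted p = 0.00082). Melk, a kinase found in dividing cells, was among the 5 largest falls at -2.04 ± 0.28 (adjusted p = 0.0004). The exception was Cdc25b, a phosphatase that activates Cdk1, at 7.91, 7.21 and 7.73 in Ngn3-GFP+ and 7.74, 7.78 and 7.88 in Sox9-GFP+ cells. Its groups overlapped and its change of -0.18 ± 0.15 (adjusted p = 0.351) was not called.

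All 9 genes of the checkpoint and anaphase fell, with a median change of -1.61. Bub1b, the checkpoint protein BubR1, read 9.06, 8.43 and 9.44 in Ngn3-GFP+ and 10.91, 10.46 and 10.71 in Sox9-GFP+ cells and changed by -1.72 ± 0.25 (adjusted p = 0.000622). Its partner kinase Bub1 was among the 5 largest falls, at -2.05 ± 0.24 (adjusted p = 0.000155). Mad2l1, which binds Cdc20, read 9.63, 8.38 and 9.99 against 10.97, 10.88 and 10.99 and changed by -1.61 ± 0.34 (adjusted p = 0.00426). Cdc20 itself, the activator of the anaphase-promoting complex, read 8.85, 7.78 and 8.90 against 10.31, 10.16 and 10.34 and changed by -1.76 ± 0.26 (adjusted p = 0.000622). In these 4 genes the second Ngn3-GFP+ array was the lowest of its group. The smallest changes in this role were those of Espl1, the separase that cleaves cohesin (-0.65, adjusted p = 0.00825), and Bub3 (-0.87, adjusted p = 0.00669).

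The 4 genes of the passenger complex all fell, by a median of -1.16. Aurkb, its kinase, read 8.78, 8.22 and 8.41 in Ngn3-GFP+ cells and 10.12, 9.86 and 10.19 in Sox9-GFP+ cells, a change of -1.58 ± 0.22 (adjusted p = 0.000388). Birc5, or survivin, which helps to hold the complex on chromatin, read 9.94, 10.01 and 10.02 against 11.10, 11.10 and 11.47 and changed by -1.23 ± 0.22 (adjusted p = 0.00165). At the centromere and kinetochore 8 of 9 were called lower. Cenpa, the histone variant that marks centromeres, read 8.82, 9.04 and 8.16 against 10.03, 9.83 and 10.04 and changed by -1.30 ± 0.19 (adjusted p = 0.000614). Ndc80, which gives its name to the microtubule-binding complex, read 9.54, 8.62 and 9.21 against 10.43, 10.30 and 10.54 and changed by -1.30 ± 0.25 (adjusted p = 0.00261). The exception was Spc25, a subunit of that same complex, at 10.72, 9.39 and 8.81 in Ngn3-GFP+ and 10.05, 9.93 and 10.12 in Sox9-GFP+ cells (-0.40, adjusted p = 0.363). Its first Ngn3-GFP+ array lay above all 3 Sox9-GFP+ arrays and the other 2 lay below them, whereas Spc24 of the same complex was called lower, at -1.41.

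All 10 spindle motor and assembly genes and all 7 central spindle and cytokinesis genes fell by at least 2-fold. Kif11, the motor that pushes spindle poles apart, read 9.27, 8.28 and 8.87 in Ngn3-GFP+ and 10.77, 10.52 and 10.79 in Sox9-GFP+ cells, a change of -1.89 ± 0.24 (adjusted p = 0.000218). Tpx2, a spindle assembly factor that activates Aurka, read 9.36, 8.97 and 9.54 against 10.55, 10.34 and 10.53 and changed by -1.18 ± 0.19 (adjusted p = 0.000873). Kif18a, a motor that aligns chromosomes, had one of the 2 largest falls at -2.13 ± 0.36 (adjusted p = 0.00119), with array values of 7.65, 5.87 and 7.61 against 9.11, 9.08 and 9.33. The other was Ect2, which activates RhoA for cytokinesis, at -2.13 ± 0.32 (adjusted p = 0.000622). Kif20a, a motor of the central spindle, read 9.02, 7.88 and 8.82 against 9.99, 9.83 and 10.01 and changed by -1.37 ± 0.26 (adjusted p = 0.00228). Anln, the contractile ring scaffold anillin, read 9.04, 8.45 and 8.48 against 10.28, 10.03 and 10.33 and changed by -1.55 ± 0.17 (adjusted p = 9.85e-05). The 6 condensin genes fell too, by a median of -1.13. Ncaph, the subunit that bridges condensin I, read 9.19, 8.64 and 8.94 against 10.37, 10.29 and 10.46 and changed by -1.45 ± 0.15 (adjusted p = 6.45e-05), while Smc4, a core subunit of both condensins, changed by -0.83 ± 0.16 (adjusted p = 0.00262).

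**Figure D2:**
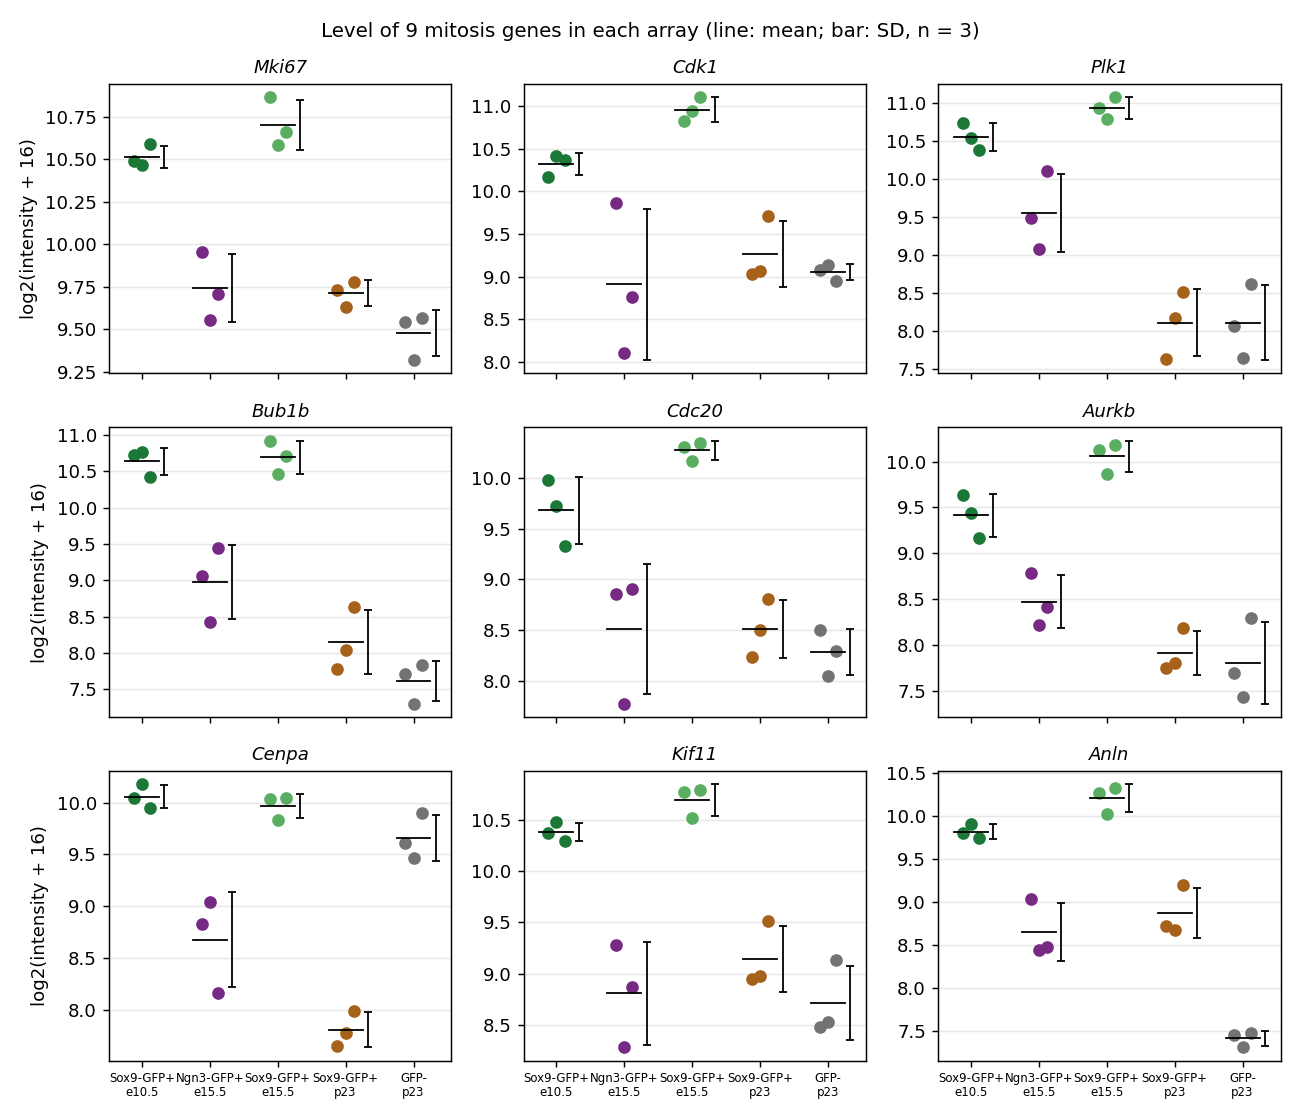
Level of 9 mitosis genes in each array, as log2(intensity + 16), with 1 panel per gene and its own vertical scale. Points are arrays, the line is the mean of 3 arrays and the bar beside it is the SD. Anln is higher in the 3 Sox9-GFP+ p23 arrays than in the 3 GFP- p23 arrays, Cenpa is lower there, and Plk1 does not separate those sorts.

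Other cell cycle genes showed the same direction in this comparison. Of 73 other mitosis genes 63 were called lower, with a median change of -1.26. Trip13, which acts on the checkpoint protein Mad2l1, changed by -2.09, Ckap2l by -2.06 and Cdca5, a regulator of cohesin, by -2.02. Of 45 DNA replication and S phase genes 39 were called lower, with a median of -1.01. The largest of these falls were in Gmnn, the licensing inhibitor geminin (-2.08), Rrm2, a subunit of ribonucleotide reductase (-1.93), and Cdc6, a licensing factor (-1.74). The ubiquitin ligase and cohesin moved less: of 24 genes of the anaphase-promoting complex and cohesin 5 were called lower and 1 higher (Nipbl, 0.29), with a median of -0.20. Of 19 cyclin-dependent kinase inhibitors and quiescence genes 5 were called lower and 1 higher. The largest were Btg1 (-1.33) and Rbl1 (-1.18) and the higher one was Cdkn2a (0.31). Over all genes 18.4% were called lower and 23.3% higher. The share of the complex and cohesin list called lower, 20.8%, was near that of all genes.

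Between e10.5 and e15.5 the mitosis genes of Sox9-GFP+ cells stayed at about the same level or slightly higher, the comparison of the early bud with the branching pancreas. At e15.5 against e10.5, 5 of 59 members were called higher and 0 lower by limma, with a median change of 0.25, and at an unadjusted p of 0.05 10 were higher and 0 lower. Over all genes 12.2% were called higher and 16% lower, with a median of -0.05, so the share of members called higher was under that of all genes. The change was positive in 52 members and negative in 7. The 5 were Hmmr, which binds spindle microtubules (0.68 ± 0.23 (adjusted p = 0.0396)), Spc24 (0.66 ± 0.20 (adjusted p = 0.026)), Aurkb (0.64 ± 0.22 (adjusted p = 0.04)), Ncapg2 of condensin II (0.58 ± 0.18 (adjusted p = 0.0287)) and Ncaph (0.48 ± 0.15 (adjusted p = 0.032)). Hmmr read 9.56, 9.52 and 9.80 at e15.5 and 9.01, 9.11 and 8.71 at e10.5, and Spc24 read 10.66, 10.45 and 10.71 at e15.5 and 10.16, 10.06 and 9.62 at e10.5. In both the stages did not overlap, but the difference was under 2-fold.

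The count of 5 was not stable. It was 0 with quantile normalization (7 at an unadjusted p of 0.05), 0 without the 3 arrays with Hbb-y signal (8 unadjusted), 9 with median centring and 20 with only the 2 stages in the fit. It was also 0 without array 2 or 3 of e10.5 or without array 1 or 3 of e15.5, and 1 without array 2 of e15.5. The 8 erythroid genes summed to 1010 to 2200 at e15.5 and 1260 to 3640 at e10.5. Over all genes 43.3% of calls were higher, and 73.7% with median centring or 62.7% with quantile normalization. The members with negative changes numbered 1 with median centring, where the median change was 0.41, and 14 with quantile normalization.

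Members whose level was close at the 2 stages included Mki67, at 10.87, 10.58 and 10.66 at e15.5 and 10.49, 10.46 and 10.59 at e10.5 (0.19, adjusted p = 0.255), and Top2a at 11.65, 11.46 and 11.58 and 11.55, 11.50 and 11.47 (0.06, adjusted p = 0.839). The largest change that was not called was that of Ccnb2, cyclin B2, at 10.99, 10.93 and 11.18 at e15.5 against 10.18, 10.35 and 10.04 at e10.5. Its stages did not overlap, yet its change of 0.85 ± 0.50 (adjusted p = 0.208) had a large error, which the fit took from the spread of Ccnb2 in all 5 groups. Cdk1 was similar, at 10.82, 10.94 and 11.11 at e15.5 and 10.17, 10.42 and 10.36 at e10.5 (0.64, adjusted p = 0.133).

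Of the other cell cycle lists, 6 of 73 other mitosis genes were called higher and 2 lower at e15.5, led by Pbk, a mitotic kinase (1.16), and with Cit, a kinase of cytokinesis (-0.85), and Gtse1 (-0.49) lower. Of 45 S phase genes 3 were called higher, namely Pold2 (0.88), Rfc4 (0.48) and Tyms (0.45). The shares called higher in these lists, 8.22% and 6.67%, were under the 12.2% of all genes, of which 16% were called lower. The inhibitors and quiescence genes moved more: 6 of 19 were called higher, with Cdkn2c, the inhibitor p18, at 2.08 ± 0.40 (adjusted p = 0.00282), Btg2, an antiproliferative gene, at 1.61 ± 0.15 (adjusted p = 5.91e-06) and Rbl2, the p130 subunit of DREAM, at 1.35 ± 0.18 (adjusted p = 0.000161). The 1 called lower was Cdkn2a (-0.48).

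By p23 the mitosis genes had fallen in Sox9-GFP+ cells. This sort held both ductal and acinar transcripts at p23, with sums of 33900 to 37600 for 8 ductal genes and 40300 to 45900 for 6 acinar genes. At p23 against e15.5, 58 of 59 members were called lower and 0 higher, 51 of them by at least 2-fold, with a median change of -1.62. Over all genes 26.8% were called lower and 30.7% higher, 8.11% were called lower by at least 2-fold, and the median was 0.05. All 59 changes were negative. Cdc25b was again the member not called (-0.08, adjusted p = 0.649). Of the calls over all genes 53.4% were higher, and 39.4% with median centring, which called 58 members lower as well.

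**Figure D3:**
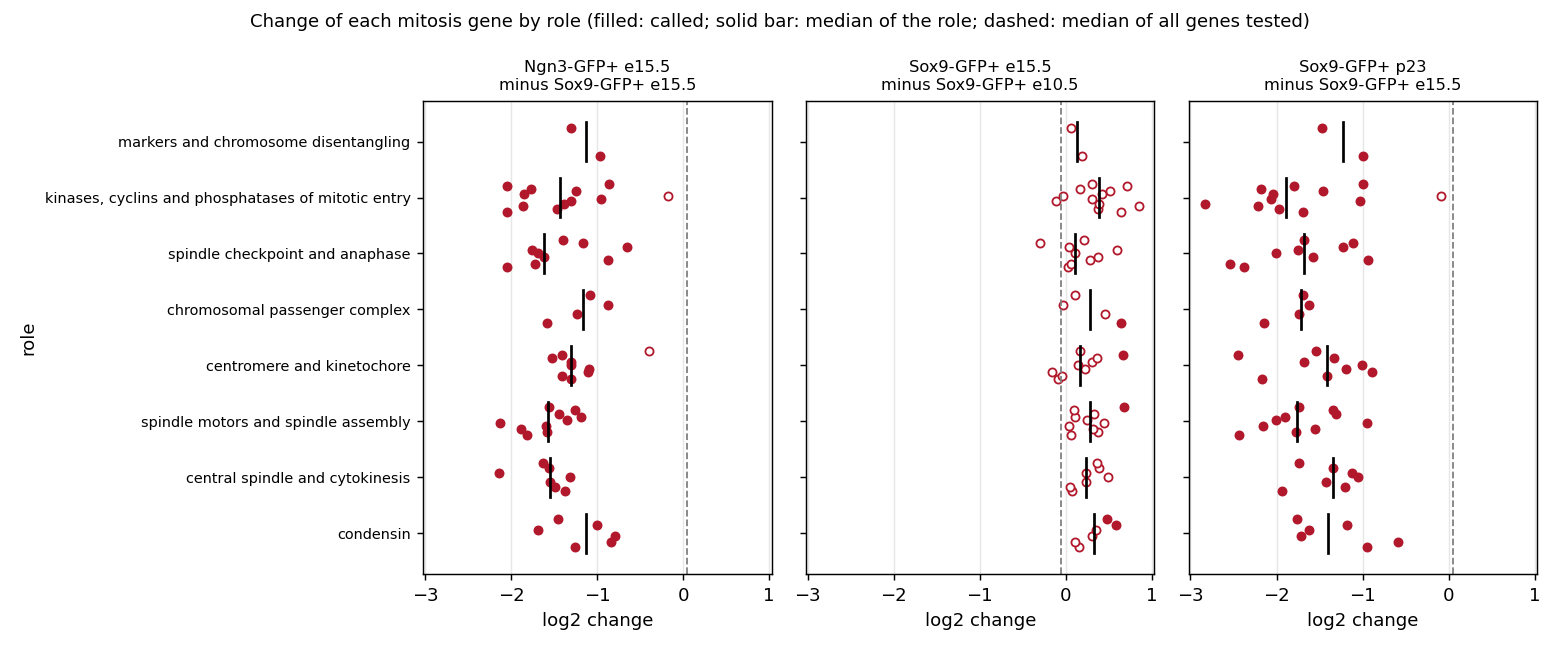
Log2 change of each mitosis gene by role in 3 comparisons, each of n = 3 arrays per group. Filled points were called at an adjusted p of 0.05 and open points were not, the solid bar is the median of the role and the dashed line the median of all genes tested. The points lie left of that line in the comparison of Ngn3-GFP+ with Sox9-GFP+ cells and of p23 with e15.5, and mostly a little right of it for e15.5 against e10.5.

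Of the 8 roles the genes of mitotic entry had the lowest median change, at -1.89, and 11 of 12 were called. Plk1 read 10.74, 10.54 and 10.38 at e10.5, 10.94, 10.79 and 11.08 at e15.5 and 7.63, 8.17 and 8.51 at p23. Its change at p23 against e15.5 of -2.84 ± 0.28 (adjusted p = 2.78e-06) was the largest of the 59, a 7.14-fold lower level. Cdk1 read 10.17, 10.42 and 10.36 at e10.5, 10.82, 10.94 and 11.11 at e15.5 and 9.03, 9.07 and 9.71 at p23, and changed by -1.69 ± 0.31 (adjusted p = 0.000647) at p23 against e15.5. Foxm1 read 9.94, 9.75 and 9.43 at e10.5, 9.96, 9.78 and 9.86 at e15.5 and 7.32, 7.57 and 8.18 at p23, and changed by -2.18 ± 0.28 (adjusted p = 2.87e-05). In these 3 genes the highest p23 array was under the lowest embryonic Sox9-GFP+ array. Mki67 at p23 was 9.73, 9.63 and 9.78, a change of -0.99 ± 0.12 (adjusted p = 2.44e-05), and Top2a was 9.79, 10.02 and 10.47, a change of -1.47 ± 0.19 (adjusted p = 3.40e-05). The second, dim probe set of Top2a did not follow the first, at a mean of 7.27 at p23 and 7.12 at e15.5.

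All 9 checkpoint and anaphase genes fell. Bub1b read 10.72, 10.76 and 10.42 at e10.5, 10.91, 10.46 and 10.71 at e15.5 and 7.78, 8.04 and 8.64 at p23, with a change at p23 against e15.5 of -2.54 ± 0.25 (adjusted p = 3.24e-06), and Bub1 changed by -2.38 ± 0.24 (adjusted p = 3.59e-06). Both were among the 5 largest falls. Cdc20 read 9.98, 9.72 and 9.33 at e10.5, 10.31, 10.16 and 10.34 at e15.5 and 8.23, 8.50 and 8.81 at p23 and changed by -1.76 ± 0.26 (adjusted p = 0.000117). Mad2l1 read 10.80, 10.79 and 10.13 at e10.5, 10.97, 10.88 and 10.99 at e15.5 and 9.18, 9.15 and 9.77 at p23 and changed by -1.58 ± 0.34 (adjusted p = 0.00178). Bub3, which also serves outside the checkpoint, had the smallest change of this role, -0.94 ± 0.20 (adjusted p = 0.00184).

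The passenger complex fell in all 4 genes, by between -2.14 and -1.62. Aurkb read 9.64, 9.44 and 9.17 at e10.5, 10.12, 9.86 and 10.19 at e15.5 and 7.75, 7.80 and 8.19 at p23 (-2.14, adjusted p = 3.24e-06), and Birc5 10.83, 10.88 and 10.60 at e10.5, 11.10, 11.10 and 11.47 at e15.5 and 9.02, 9.35 and 10.09 at p23 (-1.74, adjusted p = 2.61e-05). All 9 centromere and kinetochore genes fell. Spc24 was among the 5 largest falls at -2.45 ± 0.20 (adjusted p = 3.74e-07), with 8.08, 7.77 and 8.61 at p23. Cenpa read 10.05, 10.18 and 9.95 at e10.5, 10.03, 9.83 and 10.04 at e15.5 and 7.65, 7.78 and 7.99 at p23, a change of -2.17 ± 0.19 (adjusted p = 9.78e-07). Ndc80 read 10.24, 10.15 and 9.98 at e10.5, 10.43, 10.30 and 10.54 at e15.5 and 8.32, 8.68 and 9.23 at p23, a change of -1.68 ± 0.25 (adjusted p = 0.000113). Cenpf, a large kinetochore protein, fell least in this role, at -0.89 ± 0.21 (adjusted p = 0.00327).

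All 10 spindle genes fell, with Kif2c, which depolymerises microtubules at the kinetochore, among the 5 largest falls at -2.43 ± 0.21 (adjusted p = 7.89e-07). Kif11 read 10.37, 10.48 and 10.29 at e10.5, 10.77, 10.52 and 10.79 at e15.5 and 8.94, 8.97 and 9.51 at p23 (-1.55, adjusted p = 0.000136), and Tpx2 10.44, 10.43 and 10.25 at e10.5, 10.55, 10.34 and 10.53 at e15.5 and 8.29, 8.37 and 9.05 at p23 (-1.91, adjusted p = 2.64e-06). Kif18a fell least, at -0.95 ± 0.36 (adjusted p = 0.0352). All 7 cytokinesis genes fell, by between -1.94 and -1.05. Kif20a read 9.92, 9.95 and 9.75 at e10.5, 9.99, 9.83 and 10.01 at e15.5 and 7.82, 7.68 and 8.51 at p23 (-1.94, adjusted p = 3.92e-05), and Anln 9.81, 9.91 and 9.74 at e10.5, 10.28, 10.03 and 10.33 at e15.5 and 8.73, 8.68 and 9.21 at p23 (-1.34, adjusted p = 2.93e-05). All 6 condensin genes fell. Ncaph read 10.02, 9.94 and 9.74 at e10.5, 10.37, 10.29 and 10.46 at e15.5 and 8.50, 8.45 and 8.90 at p23 (-1.76, adjusted p = 6.81e-07), and Smc4, at 10.83, 10.76 and 11.21 at p23 and 11.54, 11.47 and 11.56 at e15.5, had the smallest called change of the 59, -0.59 ± 0.16 (adjusted p = 0.00692).

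Marker genes of other cell types also differed between p23 and e15.5. Of 18 leukocyte genes 15 were called higher at p23, and 12 to 15 of the 18 lay above the filter level at p23 against 7 at e15.5. All 9 endocrine genes were called lower, with a median change of -3.89, and they summed to 2720 to 5640 intensity units at p23 and 30800 to 40400 at e15.5. Of 12 endothelial genes 11 were called higher and 1 lower (median 0.57), with sums of 1820 to 2250 at p23 and 1410 to 1480 at e15.5. The 6 acinar genes had 2 called higher, Gp2 (7.10) and Cel (3.01), and 2 lower, and summed to 40300 to 45900 at p23 and 17600 to 23900 at e15.5. The part of these markers in the fall of the mitosis genes was not tested. The only p23 array with Ptprc under 9 was the first. A fit with that array alone for p23, whose spread was then taken wholly from the other groups, called 56 members lower than at e15.5 with a median change of -1.80, and 58 of 59 changes were negative. Without the e15.5 array with Hbb-y signal 57 were called lower.

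At p23 against e10.5, a comparison that shares its p23 arrays with the last one, 57 of 59 members were called lower and 0 higher. Of these, 43 were called lower by at least 2-fold and the median change was -1.28. Over all genes 23.3% were called lower and 17.7% higher, 7.47% were called lower by at least 2-fold, and the median was -0.01. All 59 changes were negative here too. The 5 largest falls were those of Bub1b (-2.48 ± 0.25 (adjusted p = 2.51e-06)), Plk1 (-2.45 ± 0.28 (adjusted p = 7.11e-06)), Kif2c (-2.38 ± 0.21 (adjusted p = 5.52e-07)), Bub1 (-2.35 ± 0.24 (adjusted p = 2.57e-06)) and Cenpa (-2.25 ± 0.19 (adjusted p = 3.62e-07)). The 2 not called were Cdc25b (-0.11, adjusted p = 0.598) and Kif18a (-0.50, adjusted p = 0.294). Kif18a read 8.21, 7.89 and 8.58 at p23 and 8.71, 8.73 and 8.75 at e10.5 without overlap, and the error of the fit includes the spread of its Ngn3-GFP+ arrays. Without the arrays with Hbb-y signal, which leaves 1 array at e10.5, 33 members were called lower, and the median change stayed negative. With only the first p23 array, the one of low Ptprc, 51 were called lower. In both of these fits the lone array is assumed to vary like the other groups.

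Other cell cycle genes fell by p23 as well. Against e15.5, 64 of 73 other mitosis genes were called lower (median -1.17), led by Cenpw of the kinetochore (-2.38), Ube2c, the ubiquitin-conjugating enzyme of the anaphase-promoting complex (-2.37), and Cdca5 (-2.36). Against e10.5, 55 were called lower and 1 higher, Wee1, the kinase that restrains Cdk1 (0.83 ± 0.32 (adjusted p = 0.0487)). Of 45 S phase genes 41 were called lower against e15.5 (median -0.99) and 34 against e10.5, where 2 were called higher, Tk1 (0.69) and Pola1 (0.48). Rrm2 had the largest fall of that list in both, at -2.28 and -2.42. Of 24 genes of the anaphase-promoting complex and cohesin 14 were called lower against e15.5, with a median of -0.44. They were led by Anapc11 (-1.13), Cdc23 (-0.89) and Fzr1 (-0.80), and Nipbl was called higher (0.33). Over all genes 26.8% were called lower against e15.5 and 23.3% against e10.5.

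The inhibitors and quiescence genes moved both ways by p23, with 6 of 19 (31.6%) called higher and 6 lower against e15.5. These shares were near those of all genes, of which 30.7% were called higher and 26.8% lower. Cdkn1c, the inhibitor p57, read 11.90, 11.70 and 11.77 at e10.5, 11.55, 11.32 and 11.46 at e15.5 and 8.29, 8.34 and 8.07 at p23, and fell by the most (-3.21 ± 0.15 (adjusted p = 2.14e-09) against e15.5). Btg1 (1.59 ± 0.38 (adjusted p = 0.00328)) and Btg2 (1.46 ± 0.15 (adjusted p = 3.47e-06)), both antiproliferative genes, had the largest rises. Against e10.5, Btg2 was higher by 3.07 ± 0.15 (adjusted p = 1.50e-09) and Cdkn2c by 2.91 ± 0.40 (adjusted p = 4.44e-05).

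At p23, Sox9-GFP+ and GFP- cells were both low in the mitosis genes, and 43 of 59 members did not pass the test between them. Of the others 12 were called higher and 4 lower in Sox9-GFP+ cells, with a median change over the 59 of 0.23. Over all genes 21.5% were called higher and 14.5% lower, with a median of 0.07, so the share called higher was near that of all genes. This comparison shares its Sox9-GFP+ arrays with those across stages, so its values stand beside them and are not an independent view of the same cells.

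The largest difference of all was in Cenpa, which read 7.65, 7.78 and 7.99 in Sox9-GFP+ and 9.61, 9.46 and 9.90 in GFP- cells. It was 3.62-fold lower in Sox9-GFP+ cells (-1.85 ± 0.19 (adjusted p = 2.64e-06)), while the GFP- arrays lay close to those of embryonic Sox9-GFP+ cells at 10.03, 9.83 and 10.04 at e15.5. Smc4 was lower as well, at 10.83, 10.76 and 11.21 in Sox9-GFP+ and 11.60, 11.58 and 11.95 in GFP- cells (-0.78 ± 0.16 (adjusted p = 0.00139)). Cdc25b read 7.81, 7.56 and 7.78 in Sox9-GFP+ and 8.17, 8.27 and 8.42 in GFP- cells (-0.58 ± 0.15 (adjusted p = 0.00846)). In these 3 genes the 2 sorts did not overlap. Spc24 was lower by the fit (-0.57 ± 0.20 (adjusted p = 0.0356)), with 8.08, 7.77 and 8.61 in Sox9-GFP+ and 8.85, 8.89 and 8.44 in GFP- cells, where the highest Sox9-GFP+ array passed the lowest GFP- array. Its call was lost under 8 of the alternatives tried.

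The 12 higher genes included 4 of the 7 central spindle and cytokinesis genes and 4 of the 9 centromere and kinetochore genes. Of those 9, 2 were called lower. Of the genes of mitotic entry and of the passenger complex 0 were called higher. Over all genes 21.5% were called higher and 14.5% lower, and differences between the roles were not tested. Anln had the largest rise, at 8.73, 8.68 and 9.21 in Sox9-GFP+ and 7.45, 7.31 and 7.48 in GFP- cells, a 2.74-fold higher level (1.46 ± 0.17 (adjusted p = 9.36e-06)). Cenpf read 9.10, 9.20 and 9.68 in Sox9-GFP+ and 7.88, 7.46 and 8.33 in GFP- cells (1.43 ± 0.21 (adjusted p = 8.51e-05)). Ect2 read 9.20, 8.65 and 9.14 against 7.48, 7.65 and 8.14 (1.24 ± 0.32 (adjusted p = 0.00638)). In each the lowest Sox9-GFP+ array lay above the highest GFP- array. Aspm, which focuses spindle poles, was higher by 1.00 ± 0.20 (adjusted p = 0.00133), and Prc1, which bundles microtubules of the central spindle, by 0.97 ± 0.17 (adjusted p = 0.000473). The other 7 were Kif23 (0.82), Cenpe (0.77), Cenpk (0.73), Ncapg2 (0.71), Ttk (0.66), Sgo1 (0.56) and Cenpi (0.52).

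**Figure D4:**
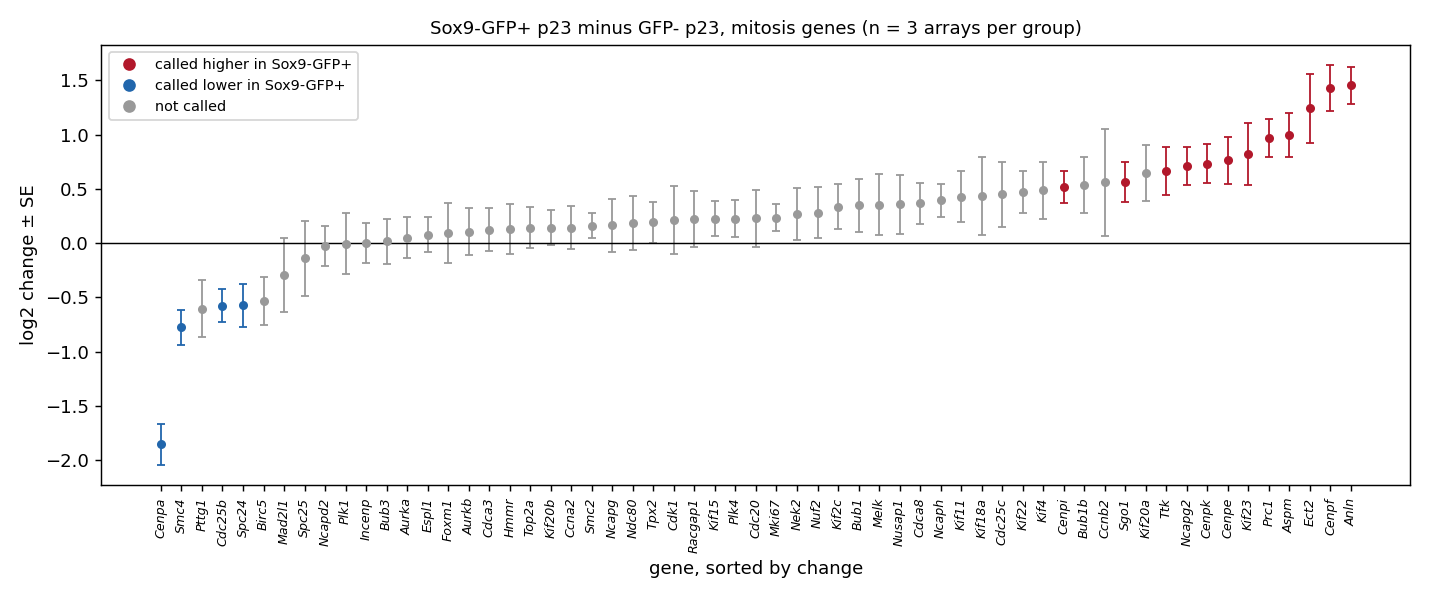
Log2 change of each of the 59 mitosis genes, Sox9-GFP+ p23 minus GFP- p23, with the standard error from the limma fit (n = 3 arrays per group), sorted by size. Red points were called higher, blue points lower and grey points were not called at an adjusted p of 0.05; Cenpa stands apart at the low end, and Anln, Cenpf and Ect2 are highest.

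Neither Mki67 nor Top2a passed the test between the p23 sorts. Mki67 read 9.73, 9.63 and 9.78 in Sox9-GFP+ and 9.54, 9.32 and 9.57 in GFP- cells (0.24, adjusted p = 0.159), and Top2a 9.79, 10.02 and 10.47 and 9.98, 9.65 and 10.22 (0.14, adjusted p = 0.614). Plk1 read 7.63, 8.17 and 8.51 in Sox9-GFP+ and 8.06, 7.64 and 8.62 in GFP- cells (-0.00, adjusted p = 0.994). The sorts covered nearly the same range for Plk1. Cdk1 in GFP- cells was 9.07, 9.14 and 8.96, Foxm1 7.46, 7.64 and 7.67 and Cdc20 8.51, 8.05 and 8.30, with changes of 0.21, 0.10 and 0.23 that were not called. Bub1b was 7.71, 7.31 and 7.84 in GFP- cells (0.54, adjusted p = 0.122) and Mad2l1 9.24, 9.65 and 10.08 (-0.29, adjusted p = 0.558). Aurkb was 7.69, 7.43 and 8.30 (0.11, adjusted p = 0.749) and Birc5 9.95, 9.81 and 10.30 (-0.53, adjusted p = 0.0721). In all 4 of these genes the sorts overlapped. Ndc80 was 8.68, 8.15 and 8.84 (0.19, adjusted p = 0.607), Kif11 8.48, 8.53 and 9.13 (0.43, adjusted p = 0.182) and Tpx2 8.24, 8.36 and 8.53 (0.19, adjusted p = 0.471). Kif20a was 7.34, 7.18 and 7.55 (0.65, adjusted p = 0.0635) and Ncaph 8.19, 8.30 and 8.18 (0.39, adjusted p = 0.0541), both with Sox9-GFP+ arrays above the GFP- arrays but adjusted p over the threshold.

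The 2 sorts at p23 differ in the cells they hold. The 18 leukocyte genes were all above the filter level in GFP- cells and 12 to 15 of them in Sox9-GFP+ cells, and 16 were called lower and 1 higher in Sox9-GFP+ cells. Ms4a1, a B cell marker, read 6.31, 6.39 and 6.21 in Sox9-GFP+ and 12.37, 12.87 and 13.42 in GFP- cells. The 8 ductal genes were all called higher in Sox9-GFP+ cells, while the 6 acinar genes summed to 40300 to 45900 in Sox9-GFP+ and 50700 to 54600 in GFP- cells. The 12 endothelial genes summed to 1820 to 2250 in Sox9-GFP+ and 4760 to 5570 in GFP- cells. Their part in the results for the mitosis genes was not tested. The median change of 0.23 moved with single arrays. It was 0.08 without the third Sox9-GFP+ array, with 22 of 59 changes negative, against 10 with all arrays. It was 0.38 without the first Sox9-GFP+ array, the one of low Ptprc, and 0.31 without the second, the one of highest Ptprc. It was 0.19 without the first or the second GFP- array and 0.37 without the third. With the first Sox9-GFP+ array alone, its spread taken from the other groups, 8 members were called higher and 4 lower, the median change was 0.08 and 26 changes were negative. The members called higher were 7 without the second GFP- array and 8 without the third Sox9-GFP+ array.

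Of the other lists between the p23 sorts, 21 of 73 other mitosis genes were called higher in Sox9-GFP+ cells, led by Wee1 (1.75 ± 0.32 (adjusted p = 0.000509)), Kntc1, a checkpoint protein of the kinetochore (1.39 ± 0.24 (adjusted p = 0.000305)), and Ckap2, which binds spindle microtubules (1.38 ± 0.22 (adjusted p = 0.00015)). Of 45 S phase genes 17 were called higher and 3 lower. Gmnn had the largest rise of that list, at 9.69, 9.56 and 10.27 in Sox9-GFP+ and 7.77, 7.64 and 8.10 in GFP- cells (2.01 ± 0.28 (adjusted p = 5.28e-05)), followed by Pola1 of DNA polymerase alpha (1.56). The 3 lower were Rrm2 (-1.13), Ccne1, cyclin E1 (-1.09), and Fen1, a flap endonuclease (-0.53). Of the anaphase-promoting complex and cohesin 7 of 24 were called higher, led by Anapc2 (0.83) and Anapc4 (0.78). Of the inhibitors and quiescence genes 3 of 19 were called higher, led by E2f5 (1.13), and 4 lower, led by Rb1 (-0.82). Over all genes 21.5% were called higher and 14.5% lower. The shares called higher were 28.8% of the other mitosis genes and 37.8% of the S phase genes. They were 29.2% of the complex and cohesin genes and 15.8% of the inhibitors and quiescence genes. Whether these shares differ from those of all genes was not tested.

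Within groups, the members also shifted together from array to array. In the third Sox9-GFP+ p23 array 56 of 59 members were the highest of the 3 arrays, against 41.7% of all genes, and the median excess over the mean of the other 2 arrays was 0.55, against 0.02 over all genes. The same array was highest for 58 of 73 other mitosis genes and 39 of 45 S phase genes. In the third GFP- p23 array 50 members were highest, against 38.6% of all genes, with a median excess of 0.43. In the second Sox9-GFP+ e15.5 array 56 members were the lowest, against 29.9% of all genes, by a median of -0.20. In the third Sox9-GFP+ e10.5 array 43 were lowest, against 37.8% of all genes, by a median of -0.20. In the second Ngn3-GFP+ array 39 were lowest, against 41.1% of all genes, by a median of -0.42, with Kif18a down to 5.87 and Ccnb2 at 9.88, 7.60 and 10.03 over the 3 arrays.

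Set against the mean of Sox9-GFP+ cells at e15.5, the median member stood at -1.17, -1.67 and -1.36 in the 3 Ngn3-GFP+ arrays. For the Sox9-GFP+ stages, the e10.5 arrays gave -0.18, -0.20 and -0.40, the e15.5 arrays 0.06, -0.13 and 0.07, and the p23 arrays -1.80, -1.77 and -1.19. In GFP- cells at p23 it stood at -1.96, -2.07 and -1.67. The third Sox9-GFP+ p23 array was about as near to the embryonic level as the first Ngn3-GFP+ array, but no array of the low groups came within 1 log2 unit of the e15.5 mean. The median SD of the members was 0.36 in Ngn3-GFP+ cells, 0.13 (e10.5), 0.13 (e15.5) and 0.34 (p23) in the Sox9-GFP+ stages, and 0.30 in GFP- cells, against 0.21, 0.16, 0.09, 0.17 and 0.15 for all genes in the same order. In Sox9-GFP+ cells at p23 the summed leukocyte genes stood at 5030, 8050 and 6930 in arrays 1, 2 and 3. Their part in the shift was not tested.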

How the data were processed

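Per the labels' protocols, pancreata of Sox9-EGFP or Ngn3-EGFP mice were dissociated, cells of pooled animals were sorted by GFP, and amplified cDNA was put on Affymetrix mouse gene arrays. The authors deposited linear intensity values per probe set, and the submitters' processing notes name PLIER and Affymetrix Expression Console 1.1. Normalization between arrays at that step is not described in the sources used here.

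Of 35557 probe sets, the 21789 that name 1 gene in the platform annotation were used, and the one of highest mean over 15 arrays stood for its gene. A gene was tested if 3 or more arrays exceeded intensity 97.8, which is percentile 30 of the table. Values were taken to log2(intensity + 16) and fitted with limma 3.58.1 in R 4.3.3 (lmFit and eBayes, 1 mean per group, all 15 arrays), with Benjamini-Hochberg adjustment within each comparison. The spread was therefore shared by all 5 groups. The script was tested on simulated data. The number of arrays limits the precision.

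The members and the gene lists were chosen with earlier results of these data known. Named genes were fixed members of each role, the 5 largest called rises and falls per comparison, members called against the majority, members not called, and up to 3 of each other list. Promoters came from RefSeq (GRCm38.p6). Replicate numbers were not used as pairs in the main fit. Correlations of same-numbered arrays, as deviations from group means, were 0.158, 0.0293 and 0.198 at p23 against e15.5. There every array correlated best with its own number. In the other comparisons they ran from -0.487 to 0.108, and only array 1 of the p23 sorts correlated best with its own number. Whether the numbers mark a pairing was not settled by these values. Alternatives were offsets, scalings, filters, probe set rules, variance models, the replicate block and arrays left out.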

Additional observations from a re-analysis of the deposited data

How the results depend on the processing

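For named members that passed the test, 1406 values were computed under the alternatives: 1355 stayed on their side of the threshold, 51 lost it and 0 changed sign. Several alternatives could hardly move a member's change. All 59 members passed the filter, and only Top2a had a second probe set. The trended variance and the replicate block left the median changes as they were. The named members also include the largest called changes, so these counts do not measure how stable the members are in general. Members near 0 did change sign: the 59 negative changes between the e15.5 sorts were 58 without the second or the third Ngn3-GFP+ array, the 59 at p23 against e15.5 were 58 with only the first p23 array, and the 10 between the p23 sorts were 8 to 26. Between the e15.5 sorts, 56 to 58 members were called lower in each fit with an array left out, while calls over all genes went to 4070 with quantile normalization and 3757 to 6839 with an array left out, against 7034. For e15.5 against e10.5 the members called higher were 5, and were 0 with quantile normalization, 0 without the arrays with Hbb-y above 9, 9 with median centring, 9 with array weights, 20 with only the groups compared, and 0 to 6 with an array left out. The calls over all genes there were 4754, and 2724, 2673 and 7149 with quantile normalization, without the Hbb-y arrays and with only the groups compared, and 1840 to 5952 with an array left out. For p23 against e15.5 members called lower were 57 to 58 with an array left out. For p23 against e10.5 they were 57, 49 to 56 with an array left out and 33 without the Hbb-y arrays, where calls over all genes were 3559 in place of 6916 with 1 array left at e10.5. For Sox9-GFP+ against GFP- cells at p23 the members called higher were 12, and 7 to 13 with an array left out (7 without the second GFP- array), and those called lower were 4, and 3 to 5. Other causes were not tested. With the replicate number as a block, members called lower were 57 between the e15.5 sorts, 58 at p23 against e15.5 and 57 at p23 against e10.5, members called higher were 5 for e15.5 against e10.5, and 13 were higher and 3 lower between the p23 sorts, and at p23 against e15.5 every array correlated best with its own number. Median centring moved the median change of all genes from 0.04 to -0.14 between the e15.5 sorts, from -0.05 to 0.11 for e15.5 against e10.5 and from 0.05 to -0.11 for p23 against e15.5.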
